A study of Oryctolagus cuniculus with 9 samples.

Results

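Messenger RNA of NUAK2, NUAK1, SIK2, SIK3, PRKAA1 and PRKAA2, kinases of the LKB1 and AMPK pathway, was measured in 9 libraries of HA-VSMC cells, a line grown in culture and listed by the submitters under Oryctolagus cuniculus, the rabbit. The kinases were taken by symbol from a list of 8. Of these, 6 were among the 19291 genes of the table, and SIK1 and STK11, which were not listed there by symbol, were not analysed here. NUAK2 was chosen by its measured levels in these libraries, higher at 50 nM and not at 250 nM. Its departure from a graded response was part of that choice. Its levels, fold changes and ranks are therefore a description and carry no test. The other 5 came in by symbol and were tested.

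The 3 groups were control cells, cells with 50 nM β-estradiol and cells with 250 nM β-estradiol, with 3 libraries each. β-Estradiol is the main ovarian estrogen, and per the labels' protocols cells were harvested after 48 h; the treatment protocol itself names only 250 nM. The labels name no transgene or deletion, do not say whether the controls received the DMSO used as solvent, and tag the controls as estrogen-treated with the concentration given as WT. The series asks how estrogen acts in adenomyosis, the growth of endometrial tissue inside the uterine muscle. Nothing states that replicates were separate cultures, so p-values measure the spread between these libraries, which may be technical.

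LKB1, the product of STK11, is a kinase that switches on AMPK and a family of AMPK-related kinases by phosphorylating their activation loop. AMPK senses falling cellular energy through its regulatory subunits and its α catalytic subunits are made by PRKAA1 and PRKAA2. The NUAK kinases bind and phosphorylate the targeting subunit of myosin phosphatase, which ties them to actomyosin tension and cell adhesion, and the salt-inducible kinases (SIKs) hold CRTC coactivators and class IIa histone deacetylases in the cytoplasm until cAMP signalling switches the SIKs off.

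Libraries held 54718407 to 72274464 count units, whose low values have local peaks at 4, 8 and 12 for a reason the sources used here do not state, and 12324 genes had enough counts to be tested. The smooth muscle markers ACTA2 and CALD1 were abundant and the 8 smooth muscle markers in the table summed to 1740 to 1810 FPKM (fragments scaled by transcript length and library size) in controls, 1640 to 1820 FPKM at 50 nM and 1670 to 1750 FPKM at 250 nM. TAGLN and CNN1 were not analysed here. DES was at 0 in every library, and the contractile genes MYLK, LMOD1 and ACTG2 averaged 0.414, 0.451 and 0.0642 FPKM in controls. Endothelial markers summed to at most 1.10 FPKM, with KDR at 0 throughout, epithelial markers to at most 0.198 FPKM, with EPCAM at 0 throughout, and leukocyte markers to at most 0.369 FPKM. The 6 fibroblast markers summed to 4640 to 4900 FPKM in controls, 5160 to 5380 FPKM at 50 nM and 5230 to 5440 FPKM at 250 nM, mostly from COL1A1 and COL1A2. COL1A1 rose at both concentrations against control (edgeR adjusted p = 0.026 at 50 nM and 0.0401 at 250 nM). COL1A2 rose at 50 nM (edgeR adjusted p = 0.0159), while the other 4 did not pass. Of all genes tested, 1.55% were called higher at 50 nM against control and 0.203% at 250 nM. The marker calls were not followed under other settings. The part of these markers in the kinase values below was not tested. In bulk RNA, fewer cells of a type and less RNA per cell cannot be told apart.

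Per transcript length the NUAK pair dominated the set. On the FPKM scale NUAK1 averaged 107 over the 9 libraries, with a range of 87.5 to 124, and lay above 94.7% of the genes tested. NUAK2 averaged 47.6 FPKM, with a range of 36.2 to 59.9, and lay above 86.8% of them. SIK2 averaged 13.9 FPKM, PRKAA1 13.8 FPKM, SIK3 10.9 FPKM and PRKAA2 5.11 FPKM. This order held in 9 of 9 libraries for every neighbouring pair except SIK2 and PRKAA1, where SIK2 was the higher in 4 of 9 libraries and their ranges overlapped. SIK3 was below PRKAA1 in 9 of 9 libraries by a ratio of only 1.15 to 1.42, and its range up to 12.1 FPKM came near the lowest PRKAA1 value of 12.5 FPKM.

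**Figure D1:**
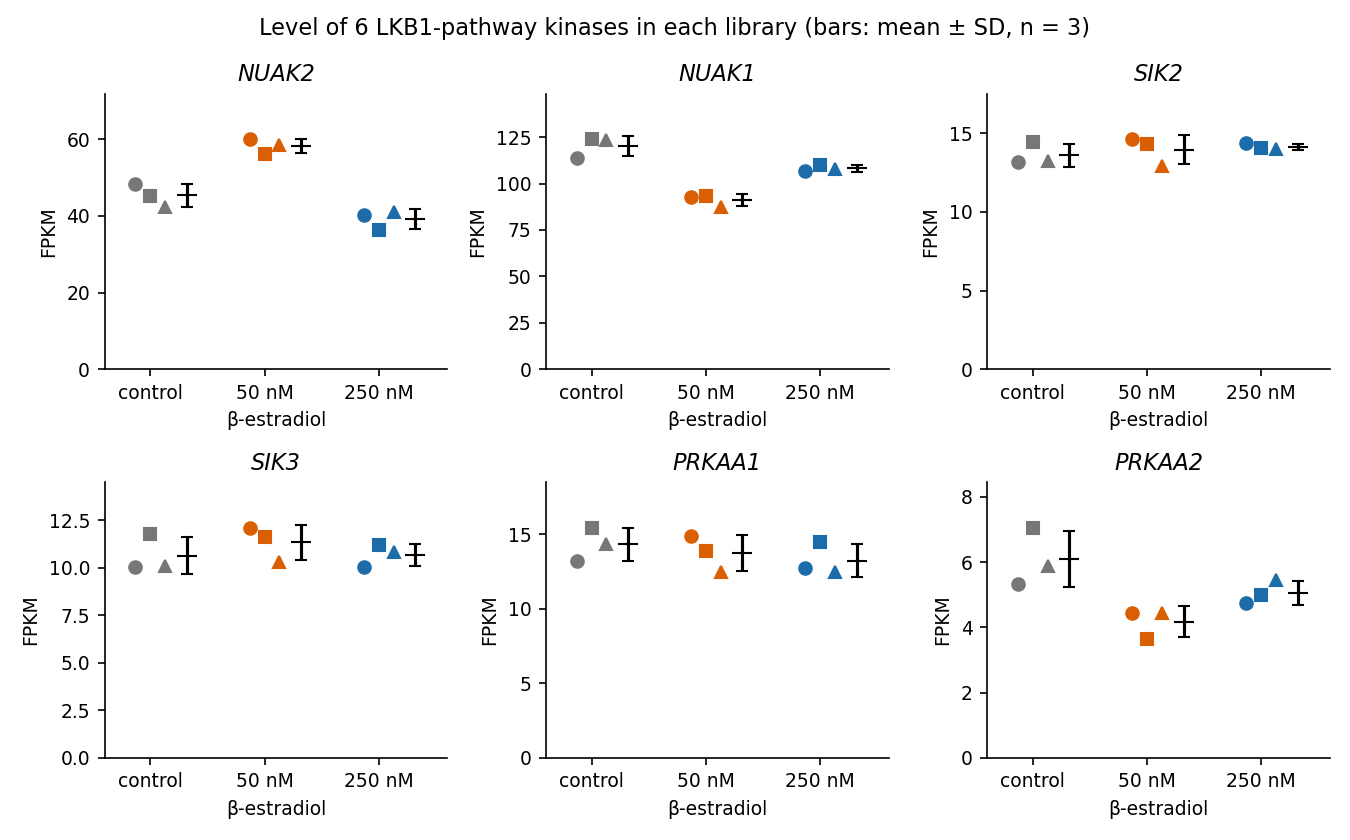
Deposited FPKM (vertical axis, from 0) of the 6 kinases in control, 50 nM and 250 nM libraries; circles, squares and triangles are replicates 1, 2 and 3, and bars are mean ± SD of 3. NUAK2 is highest at 50 nM (56.1 to 59.9 FPKM), NUAK1 is lowest there (87.5 to 93.3 FPKM), and SIK2, SIK3 and PRKAA1 overlap across groups.

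NUAK2, also called SNARK, is a stress-inducible member of the NUAK pair. In CPM (counts scaled to library size with TMM factors), it stood at 98.9, 94.1 and 86.6 in control replicates 1, 2 and 3. At 50 nM it stood at 127, 121 and 123 CPM, and at 250 nM at 84.2, 77.0 and 87.0 CPM. Every 50 nM library lay above every other library, while the 250 nM and control libraries met at a single point, 250 nM replicate 3 (87.0 CPM) being just above control replicate 3 (86.6 CPM). Means were 93.2 ± 6.16 CPM in controls, 124 ± 3.11 CPM at 50 nM and 82.7 ± 5.15 CPM at 250 nM (SD, n = 3 each).

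The fitted log2 fold change of NUAK2 was 0.41 ± 0.06 (SE) for 50 nM against control, a level 1.33 times as high. For 250 nM against control it was -0.17 ± 0.06, and for 250 nM against 50 nM it was -0.58 ± 0.06, a level 1.5 times lower. These comparisons share libraries and are not independent. Leaving out each library in turn moved the first value between 0.36 and 0.46 and the second between -0.22 and -0.12. As background over the 12324 genes, the edgeR quasi-likelihood test at an adjusted p under 0.05 called 3.25% at 50 nM against control, 0.308% at 250 nM against control and 0.325% at 250 nM against 50 nM. In the same comparisons the 2 sets of libraries were fully apart for 19%, 15.5% and 11.5% of genes. The 50 nM libraries lay above all controls for 8.88% of genes, the 250 nM libraries lay below all 50 nM libraries for 5.57%, and the 50 nM libraries lay outside all 6 others for 5.53%, above them for 2.5%. These shares are given beside NUAK2 as background only, since its values in the same comparisons chose it.

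On the deposited FPKM scale NUAK2 had 48.4, 45.3 and 42.3 in controls, 59.9, 56.1 and 58.5 at 50 nM, and 40.1, 36.2 and 41.1 at 250 nM. All 250 nM libraries lay below all controls on this scale, so that the 3 groups were apart with 50 nM highest and 250 nM lowest, as for 7 of the 12324 genes tested (0.0568%). These 7 were NUAK2, ZFP36L2, SMAD7, FNBP4 and 3 genes listed by an Ensembl identifier only. On the CPM scale 5 genes (0.0406%) had this pattern, NUAK2 not among them. Both shares are background only, since the levels of NUAK2 in these groups chose it. Whether 250 nM separates from control for NUAK2 therefore depended on the scaling, and the higher level at 50 nM did not.

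How far NUAK2 departed from a graded response depended on the measure. Among 149 genes with a symbol, a mean of at least 5 CPM and a call upward at 50 nM, 4 had a mean log2 CPM at 250 nM below the control, 2.68% of them. Expressed as a share of the change at 50 nM, the change at 250 nM was -0.41 for NUAK2, -0.14 for ID3, -0.04 for GADD45G and -0.01 for PNRC1, and NUAK2 had the lowest share of the 149. Because NUAK2 was chosen for this shape, its low share restates the choice. Its place among the 149 follows from the same values and is no test of it. By the size of the departure from the midpoint of control and 250 nM, 0.50 on the log2 scale, NUAK2 ranked 25th of the 149. It ranked 51st in absolute size of all 7595 genes of that level with a symbol. With the control and 250 nM weighted so that 50 nM would lie on a straight line in concentration, the departure was 0.45 and the rank in absolute size 101.

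NUAK1, the more abundant paralog and a regulator of cell adhesion and survival, was lower at 50 nM. It had 186, 190 and 174 CPM at 50 nM, against 219, 242 and 237 CPM in controls, and the groups did not overlap, as for 10.1% of genes in this direction. The means were 183 ± 8.30 CPM at 50 nM and 233 ± 12.3 CPM in controls (SD, n = 3 each), a fall of 1.27-fold (log2 fold change -0.35 ± 0.06, edgeR adjusted p = 0.00303). The call held in all 20 alternative settings run, including those without each library in turn, with adjusted p up to 0.0255. At 250 nM NUAK1 had 211, 221 and 214 CPM, against 219, 242 and 237 CPM in controls, which overlapped by 250 nM replicate 2 and control replicate 1. On the FPKM scale it had 107, 110 and 108 at 250 nM, against 114, 124 and 123 in controls, with no overlap. The share of genes apart on the FPKM scale in this comparison was not computed. On log2(FPKM + 1) the median gene was itself lower at 250 nM than in control (log2 fold change -0.033). Over all genes, 0.203% were called higher at 250 nM than in control and 0.105% lower, and NUAK1 did not pass (log2 fold change -0.11 ± 0.06, 95% interval -0.23 to 0.01, edgeR adjusted p = 0.626). Between the concentrations, the 250 nM libraries lay above the 50 nM libraries without overlap, as for 5.94% of genes. The test did not pass (log2 fold change 0.23 ± 0.06, 95% interval 0.11 to 0.36, edgeR adjusted p = 0.159), in a comparison with 0.187% of genes called higher and 0.138% lower, and DESeq2 called it (adjusted p = 0.0127).

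The 50 nM level of NUAK1 also lay off the midpoint of the other groups. Against the mean of control and 250 nM, its log2 difference was -0.29 ± 0.05 (edgeR adjusted p = 0.0054), in a comparison in which 1.56% of genes were called, 0.787% higher and 0.771% lower. Its 50 nM libraries lay below all 6 others, as for 3.03% of genes. The corresponding log2 difference of NUAK2 was 0.50 ± 0.05, given as a description. Both NUAK genes thus had their extreme level at 50 nM, on opposite sides of the other groups. This was not particular to them, since the 50 nM libraries of PRKAA2 also lay below all 6 others. Its log2 difference was -0.38 ± 0.11, which did not pass (edgeR adjusted p = 0.108) and was called in 1 alternative.

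**Figure D2:**
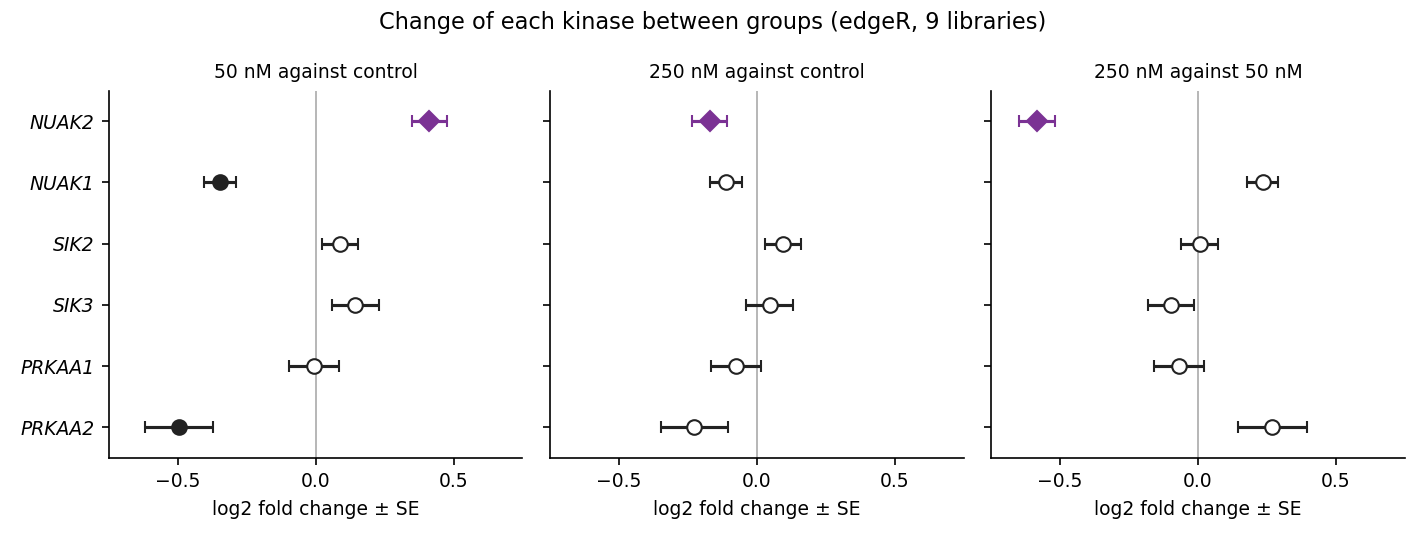
Log2 fold change (horizontal axis, ± SE) of each kinase for 50 nM against control, 250 nM against control and 250 nM against 50 nM, from the fit to 9 libraries. Filled circles passed an adjusted p of 0.05 (NUAK1 and PRKAA2 at 50 nM against control), open circles did not, and the purple diamond marks NUAK2, which was not tested.

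The ratio of the pair within a library does not depend on how libraries are scaled. NUAK2 to NUAK1, as a ratio of FPKM, was 0.645, 0.602 and 0.669 at 50 nM, against 0.425, 0.366 and 0.343 in controls. At 250 nM it was 0.376, 0.329 and 0.382, which overlapped the controls. The ratio averaged 0.378 ± 0.0424 in controls, 0.639 ± 0.0341 at 50 nM and 0.362 ± 0.0292 at 250 nM (SD, n = 3 each). No test was made of it, since it contains NUAK2. The summed level of the pair was 162 to 169 FPKM in controls, 146 to 153 FPKM at 50 nM and 146 to 149 FPKM at 250 nM. On the log2(FPKM + 1) scale the median gene was itself lower than in control, by a log2 fold change of -0.041 at 50 nM and -0.033 at 250 nM, and the share of genes whose FPKM separated in this way was not computed.

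**Figure D3:**
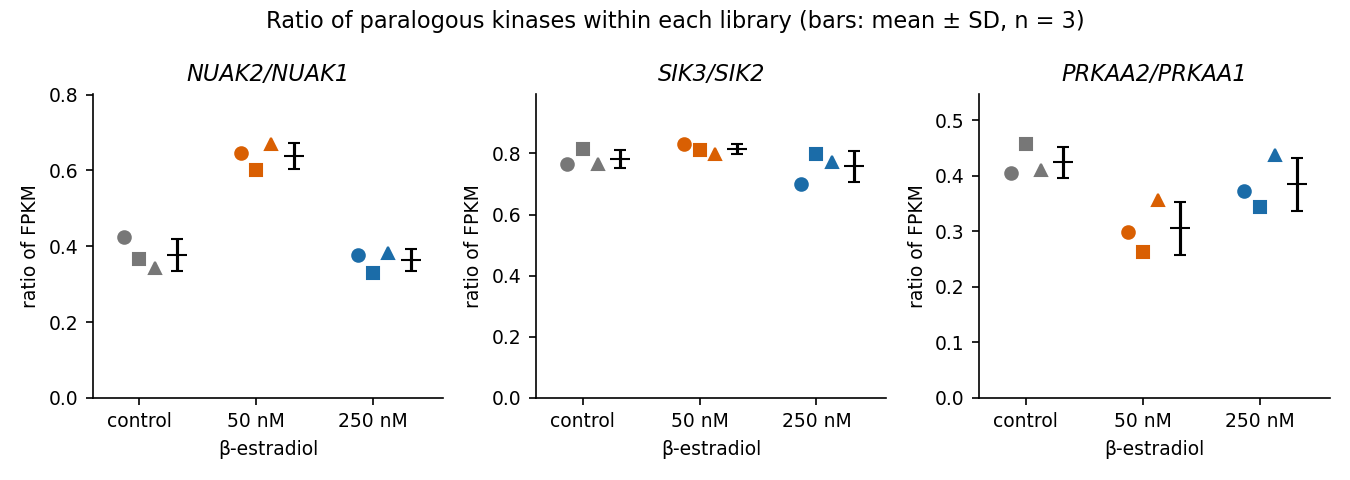
Ratio of FPKM of paralogous kinases (vertical axis, from 0) in each library; circles, squares and triangles are replicates 1, 2 and 3, and bars are mean ± SD of 3. NUAK2/NUAK1 lies at 0.602 to 0.669 at 50 nM and at 0.329 to 0.425 in the other groups, PRKAA2/PRKAA1 is lower at 50 nM than in controls, and SIK3/SIK2 lies at 0.701 to 0.83 over all 9 libraries.

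Neither SIK gene passed the test in any comparison. SIK2, first described for its part in insulin signalling in fat, had 70.9, 79.3 and 71.5 CPM in controls, 82.0, 81.7 and 72 CPM at 50 nM, and 79.6, 78.8 and 78.3 CPM at 250 nM. Its log2 fold change was 0.09 ± 0.07 at 50 nM (95% interval -0.05 to 0.23, edgeR adjusted p = 0.60) and 0.09 ± 0.07 at 250 nM (-0.05 to 0.24, edgeR adjusted p = 0.781). The groups overlapped in each comparison.

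SIK3, known in mice for its part in cartilage and bone growth, had 44.5, 53.0 and 44.9 CPM in controls, 55.8, 54.4 and 47.1 CPM at 50 nM, and 45.8, 51.6 and 49.7 CPM at 250 nM. Its log2 fold change was 0.14 ± 0.08 at 50 nM (95% interval -0.04 to 0.32, edgeR adjusted p = 0.454) and 0.05 ± 0.08 at 250 nM (-0.13 to 0.23, edgeR adjusted p = 0.943). The groups again overlapped. For 250 nM against 50 nM the 95% interval was -0.28 to 0.08 for SIK3 and -0.13 to 0.15 for SIK2. The ratio of SIK3 to SIK2 was 0.782 ± 0.0295 in controls, 0.813 ± 0.0155 at 50 nM and 0.757 ± 0.0502 at 250 nM (SD, n = 3 each). All 250 nM ratios (0.701, 0.798 and 0.773) lay below all 50 nM ratios (0.83, 0.812 and 0.799), by a narrow margin.

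Of the AMPK catalytic subunits, PRKAA2 fell at 50 nM and PRKAA1 did not pass. PRKAA2, which encodes the α2 subunit that is prominent in skeletal and heart muscle, had 8.75, 7.25 and 8.67 CPM at 50 nM, against 10.1, 13.5 and 11.2 CPM in controls. Every 50 nM library was below every control, as for 10.1% of all genes tested. Means were 8.22 ± 0.841 CPM at 50 nM and 11.6 ± 1.76 CPM in controls (SD, n = 3 each), a fall of 1.41-fold (log2 fold change -0.50 ± 0.12, edgeR adjusted p = 0.0384).

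This call on PRKAA2 was narrow. It was lost without control replicate 2 (log2 fold change -0.37, edgeR adjusted p = 0.143), control replicate 3 (-0.52, 0.0965), 50 nM replicate 1 (-0.54, 0.0753) or 50 nM replicate 2 (-0.41, 0.173), and without 250 nM replicate 2 (-0.50, 0.0599) or 250 nM replicate 3 (-0.50, 0.0516), which are in neither group of the comparison but share its estimate of the spread. It was also lost with the fit to the control and 50 nM libraries alone (edgeR adjusted p = 0.0773) and with limma on log2(FPKM + 1) with the filter (adjusted p = 0.0514) and without it (0.0833), so that it held in 11 of 20 alternatives. The direction held in each. At 250 nM PRKAA2 had 9.19, 9.82 and 10.7 CPM, which overlapped the controls and lay above all 50 nM libraries, as for 5.94% of genes. It did not pass against control (log2 fold change -0.23 ± 0.12, 95% interval -0.49 to 0.03, edgeR adjusted p = 0.65) or against 50 nM (0.27 ± 0.12, 95% interval 0.01 to 0.53, edgeR adjusted p = 0.859).

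PRKAA1, which encodes the widely expressed α1 subunit, had 23.1, 27.4 and 25.2 CPM in controls, 27.1, 25.6 and 22.6 CPM at 50 nM, and 22.9, 26.4 and 22.6 CPM at 250 nM. The groups overlapped, with a log2 fold change of -0.01 ± 0.09 at 50 nM (95% interval -0.20 to 0.19, edgeR adjusted p = 0.988) and -0.07 ± 0.09 at 250 nM (-0.27 to 0.12, edgeR adjusted p = 0.901). The ratio of PRKAA2 to PRKAA1 was 0.298, 0.262 and 0.356 at 50 nM, against 0.405, 0.457 and 0.411 in controls, with no overlap. The exact two-sided permutation test of that difference gave p = 0.1, the smallest it can give with 3 libraries against 3, and 0.3 after adjustment over the 6 ratio comparisons made for the AMPK and SIK pairs. The test could not pass at this number of libraries, so it does not settle whether the subunits differed in response.

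Of the 5 kinases that were tested, 2 were lower at 50 nM (NUAK1 and PRKAA2) and 0 higher, where 1.7% of all genes tested were lower and 1.55% higher. That balance over all genes, 210 lower and 191 higher, moved to 223 lower and 85 higher with limma on log2(FPKM + 1), a scale on which the median log2 fold change of all genes was -0.041. Both kinases kept their direction there, and only NUAK1 its call. At 250 nM against control, and at 250 nM against 50 nM, 0 of the 5 passed the edgeR test, where 0.308% and 0.325% of all genes passed. DESeq2 called 0 and 1 of the 5, and 140 and 99 of all genes. At an unadjusted edgeR p under 0.05 there were 0 and 2 of the 5. The share of all genes at that unadjusted level was not computed, so these counts cannot be set beside it.

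Partners and targets of the kinases were described by lists. At 50 nM against control 3.25% of all genes tested passed, so 0 calls in a short list tells little about its genes. The 7 LKB1 partners and upstream kinases tested had a median log2 fold change of 0.03 at 50 nM against control, and 0 passed; over all genes the median was -0.002. CAB39, the scaffold that activates LKB1 together with STRADA, had 139 ± 3.41 CPM at 50 nM and 125 ± 5.23 CPM in controls (SD, n = 3 each; log2 fold change 0.16 ± 0.05, edgeR adjusted p = 0.147), and DESeq2 alone among the alternatives passed it (adjusted p = 0.0494). MAP3K7, the kinase TAK1, had 59.7 ± 2.98 CPM at 50 nM and 58.5 ± 2.94 CPM in controls (SD, n = 3 each). Of 6 AMPK subunit genes tested, PRKAA2 was lower and 0 were higher (median -0.02); PRKAG3, the γ subunit of skeletal muscle, had too few counts to be tested. Of 10 AMPK substrates tested, PFKFB3, which makes the activator of glycolytic phosphofructokinase, was lower (24.1 ± 1.40 CPM at 50 nM and 30.6 ± 0.138 CPM in controls, SD, n = 3 each; -0.35 ± 0.07, edgeR adjusted p = 0.00966), and 0 were higher (median 0.00). Without 50 nM replicate 2 the adjusted p of PFKFB3 was 0.0512. The AMPK subunit and substrate lists each had 1 gene called lower, where 1.7% of all genes tested were lower and 1.55% higher.

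The other AMPK-related kinases had the lowest median of these lists at 50 nM, -0.18 over 5 genes. Of these 5, 0 passed the test, where 3.25% of all genes tested passed. MARK2, a kinase of microtubule-associated proteins, had 42.7 ± 0.642 CPM at 50 nM and 48.4 ± 0.974 CPM in controls (SD, n = 3 each; log2 fold change -0.18 ± 0.06, edgeR adjusted p = 0.117), and it passed with DESeq2 (adjusted p = 0.048) and limma on log2(FPKM + 1) (adjusted p = 0.0436). SNRK had 27.2 ± 3.29 CPM at 50 nM and 32.2 ± 3.55 CPM in controls (SD, n = 3 each; -0.24 ± 0.09, edgeR adjusted p = 0.213). MARK1 had 32.4 ± 2.83 CPM at 50 nM and 33.8 ± 0.593 CPM in controls (SD, n = 3 each). At 250 nM against control the median of these 5 was -0.03.

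**Figure D4:**
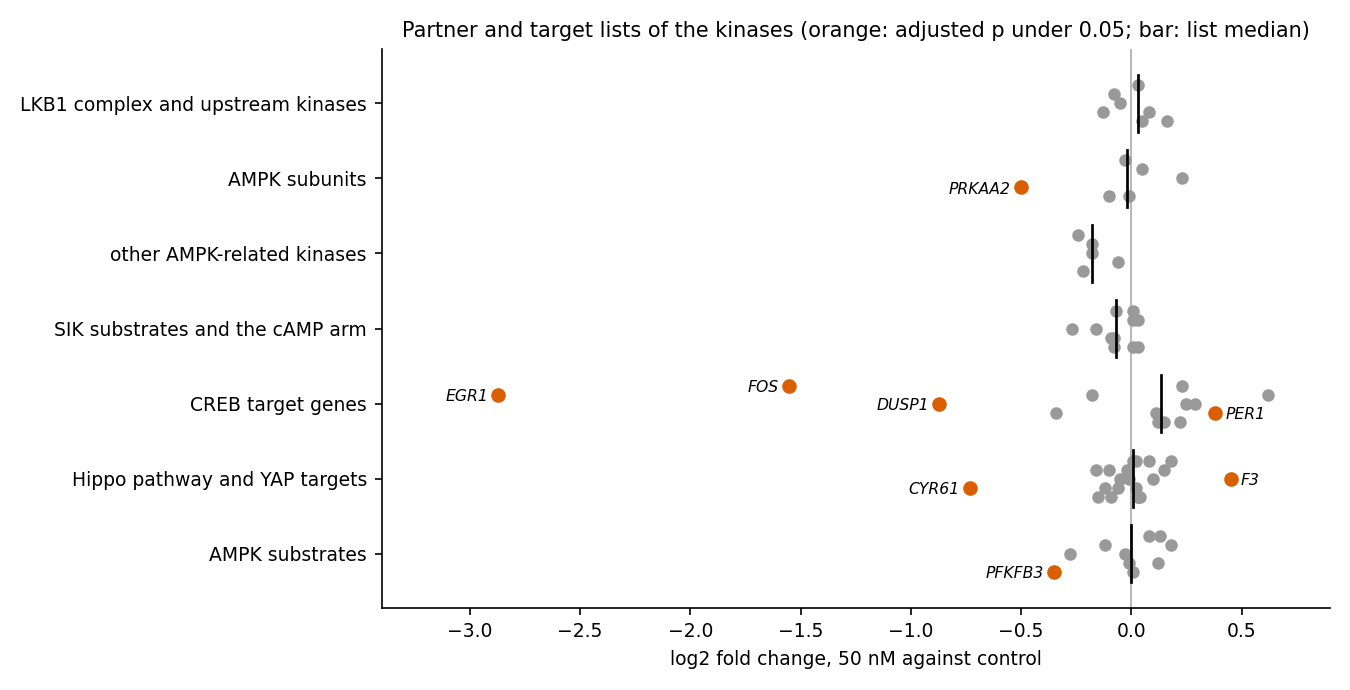
Log2 fold change at 50 nM against control (horizontal axis) of each tested gene in the lists of partners, substrates and targets; each point is a gene, orange points passed an adjusted p of 0.05 and black bars are list medians. The medians lie between -0.18 and 0.14, and 4 of the 8 genes past the threshold are in the CREB target list.

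Downstream of the SIKs, the 11 genes of the CRTC, class IIa deacetylase, CREB and protein kinase A list had a median of -0.07 at 50 nM. Of these 11, 0 passed, where 3.25% of all genes tested passed. The regulatory subunit genes of protein kinase A, PRKAR1A and PRKAR2A, stood at 81.5 and 51.5 FPKM at 50 nM, against 82.7 and 53.2 FPKM in controls. Among 14 CREB target genes, 1 rose and 3 fell at 50 nM against control, where 1.55% of all genes tested rose and 1.7% fell, and the list's median was 0.14. The 3 that fell, FOS, EGR1 and DUSP1, are also induced by growth factors through MAP kinases. FOS had 38.1 ± 3.55 CPM at 50 nM and 111 ± 14.0 CPM in controls, EGR1 41.6 ± 9.24 CPM at 50 nM and 305 ± 33.4 CPM in controls, and DUSP1 173 ± 7.40 CPM at 50 nM and 315 ± 19.6 CPM in controls (SD, n = 3 each). The gene that rose was PER1, a circadian repressor induced by cAMP, with 33.6 ± 2.33 CPM at 50 nM and 25.8 ± 0.628 CPM in controls (SD, n = 3 each; log2 fold change 0.38 ± 0.07, edgeR adjusted p = 0.00718). Against the mean of control and 250 nM PER1 was also higher at 50 nM (0.31 ± 0.06, edgeR adjusted p = 0.0128). That call held in 15 alternatives. Those that lost it included edgeR without 50 nM replicate 2 (0.25, adjusted p = 0.104) and limma on log2(FPKM + 1) (0.25, adjusted p = 0.065). Of the 14, FOS and DUSP1 also fell at 250 nM against control, and 0 rose, where 0.105% of all genes fell and 0.203% rose.

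Of 21 Hippo pathway genes and YAP targets, 1 rose and 1 fell at 50 nM, where 1.55% of all genes tested rose and 1.7% fell, with a median of 0.01. CYR61, a secreted matrix protein gene, fell to 979 ± 2.01 CPM at 50 nM, against 1630 ± 105 CPM in controls, and F3, the tissue factor gene, rose to 13.0 ± 1.37 CPM at 50 nM, against 9.46 ± 0.858 CPM in controls (SD, n = 3 each; log2 fold change 0.45 ± 0.11, edgeR adjusted p = 0.0352). The call on F3 was lost without control replicate 1, 2 or 3, 50 nM replicate 1 or 3, or 250 nM replicate 3, with adjusted p of 0.113, 0.0823, 0.0551, 0.0896, 0.092 and 0.0536, and with limma on log2(FPKM + 1), where it was 0.0979, or with only the groups compared, where it was 0.0627. At 250 nM against control CYR61 fell and 0 rose, where 0.105% of all genes fell and 0.203% rose.

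The genes whose levels followed NUAK2 most closely were sought among 7594 others with a symbol and a mean of at least 5 CPM, by Pearson's r of log2 CPM over the 9 libraries. The values are a description, since all genes share the same libraries and 3 groups, and over these genes r had a median of -0.003 with the 5th and 95th percentiles at -0.625 and 0.567. The closest was ZFP36L2, an RNA-binding protein that speeds the decay of AU-rich messages (r = 0.956), with 90.4 ± 4.95 CPM in controls, 104 ± 2.02 CPM at 50 nM and 83.8 ± 2.58 CPM at 250 nM. GADD45G, a growth arrest and stress gene (r = 0.942), had 80.1 ± 4.61 CPM in controls, 106 ± 6.0 CPM at 50 nM and 79.2 ± 4.89 CPM at 250 nM. SMAD7, the inhibitory SMAD of TGF-β signalling (r = 0.942), had 19.8 ± 0.595 CPM in controls, 24.6 ± 1.65 CPM at 50 nM and 15.6 ± 1.72 CPM at 250 nM (SD, n = 3 each).

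The next were the ubiquitin ligase gene MARCH7 (r = 0.94), ID3, an inhibitor of basic helix-loop-helix factors (0.919), the translational repressor PUM2 (0.917), the RNase P subunit POP4 (0.907) and the interferon regulatory factor IRF1 (0.907). IRF1 had the tallest 50 nM level relative to control of these 8, with 38.3 ± 1.75 CPM in controls, 61.5 ± 2.83 CPM at 50 nM and 40.4 ± 1.31 CPM at 250 nM (SD, n = 3 each). At the other end, JUN, a subunit of the AP-1 factor, had the lowest r (-0.948), with 101 ± 1.78 CPM in controls, 86.0 ± 1.90 CPM at 50 nM and 108 ± 4.52 CPM at 250 nM. The insulin receptor substrate gene IRS1 (-0.937) and FAM222A (-0.932) were also near that end. Within the kinase set r with NUAK2 was -0.793 for NUAK1, -0.572 for PRKAA2, 0.388 for SIK3, 0.092 for PRKAA1 and 0.091 for SIK2. By Spearman's rank correlation 5 of the 8 closest genes were the same, and on log2(FPKM + 1) 6 of 8.

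**Figure D5:**
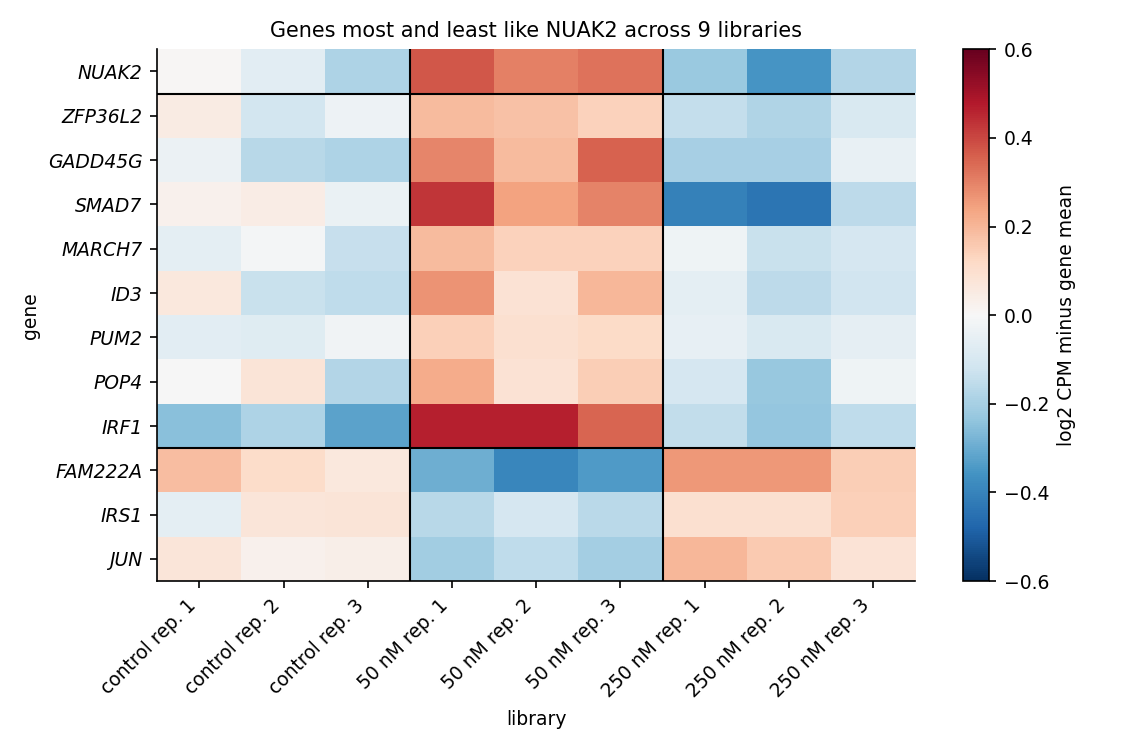
Log2 CPM minus each gene's mean over 9 libraries (colour, red higher, blue lower) for NUAK2, the 8 genes of highest Pearson r with it and JUN, IRS1 and FAM222A, with r near the low end; columns are libraries by group. The 8 are highest in the 50 nM columns, and JUN, IRS1 and FAM222A are lowest there.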

How the data were processed

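Messenger RNA of 9 HA-VSMC libraries was analysed in the groups given by the sample titles. Per gene, the authors deposited an estimated count and an FPKM value for every library; Trim Galore, TopHat2 2.1.1, Cufflinks and Cuffdiff are named in the submitters' processing notes, while any counting tool, build or annotation was not given in the sources used here. Values in the deposited count table are whole numbers, with local peaks at 4, 8 and 12 among the low ones, and no rounding was needed. Columns were matched to titles by group and number.

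Genes were kept by filterByExpr (minimum count 10) and tested with edgeR 4.0.16 in R 4.3.3 (quasi-likelihood test, TMM factors, all 9 libraries in 1 fit), with Benjamini-Hochberg adjustment over all 12324 genes and a threshold of 0.05. Standard errors come from the fold change and its F value, and intervals are unadjusted. CPM values use the TMM factors. Members, gene lists and tests were chosen with earlier results of these data known. From each list, genes were named if they passed in any comparison (at most 4, by p), otherwise the 2 of highest CPM; SNRK, FNBP4 and PNRC1, named outside this rule, were chosen after their values were seen, as were the marker genes given beside the groups. Genes named for likeness to NUAK2 were the 8 of highest and 4 of lowest r; of the genes and lists these rules name, 1 gene and 1 list are not reported here.

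Alternatives were DESeq2 1.42.0, RLE and upper-quartile factors, other filters, only the groups compared, the replicate number as a block, counts divided by 4, limma 3.58.1 on the FPKM values with pseudocounts of 1 and 0.1, and leaving out each library. Paralogs with similar sequence, such as NUAK1 and NUAK2, could share counts. No transcript or protein sequence was used here.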

Additional observations from a re-analysis of the deposited data

How the results depend on the processing

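All 79 alternative values of NUAK2 kept their direction and moved by less than 1 SD of replicates. Of 395 for the other 5 kinases, 377 kept direction and side of the threshold, 9 lost the call (all PRKAA2 at 50 nM against control), 2 gained one with DESeq2 and 7 changed sign, each near 0. The sign changed for PRKAA1 at 50 nM against control without control replicate 2 (0.06) or 50 nM replicate 3 (0.07; range leaving out each library -0.06 to 0.07), SIK2 at 250 nM against 50 nM without 50 nM replicate 3 (-0.05; range -0.05 to 0.04), and PRKAA1 against the mean of control and 250 nM without 50 nM replicate 1 (-0.03; range -0.03 to 0.10), with limma on log2(FPKM + 1) with or without the filter (-0.0018) and on log2(FPKM + 0.1) (-0.0019). The cause of these was not tested.

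Counts of all genes called moved more. At 50 nM against control 401 genes passed (191 higher, 210 lower), 702 with DESeq2, 234 with only the groups compared, 234 with limma on log2(FPKM + 1) without the filter (77 higher, 157 lower; 88 and 236 on log2(FPKM + 0.1)), and 187 to 565 leaving out a library, the lowest without control replicate 3. At 250 nM against control 38 passed, 140 with DESeq2 (77 higher, 63 lower, where edgeR gave 25 and 13), 4 with each limma setting, and 5 (without 250 nM replicate 3) to 56 leaving out a library. At 250 nM against 50 nM 40 passed, 99 with DESeq2, 23, 26 and 11 with limma on log2(FPKM + 1), log2(FPKM + 0.1) and without the filter, and 21 to 50 leaving out a library. Against the mean of control and 250 nM 192 passed, 97 higher and 95 lower, 388 with DESeq2, 82 with limma without the filter, and 108 to 232 leaving out a library; with limma on log2(FPKM + 1) 58 were higher and 95 lower, on log2(FPKM + 0.1) 56 and 95, and without the filter 25 and 57. Limma on log2(FPKM + 0.1) gave 18 higher and 8 lower at 250 nM against 50 nM, where edgeR gave 23 and 17. The cause was not tested.

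Replicate numbers did not pair the libraries: same-numbered libraries correlated at -0.032 to 0.036 in their deviations from group means. The replicate block called 492 genes at 50 nM against control and changed no call on a kinase (NUAK1 adjusted p = 0.00184, PRKAA2 0.0448). PRKAA2 had the fewest count units of the 6 kinases, 462 to 844 per library; its call at 50 nM held with counts divided by 4 (adjusted p = 0.035).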
